A study of Mus musculus with 4 samples.

Results

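The Igf2r and Airn imprinted locus of mouse chromosome 17 was examined on CpG island arrays of methylated DNA from embryonic stem cells. Its probes were taken by position, as all probes other than controls between 12400000 and 12750000 in the files. This gave 20 of the 97651 probes on each array, in 2 of the 14121 regions measured. A region is a run of at least 3 probes whose neighbouring starts lie at most 500 bp apart, and no probe of the window fell outside its 2 runs. The run from 12584752 to 12585952 (10 probes, 1201 bp) is called the Airn promoter run here, and the run from 12612307 to 12613442 (10 probes, 1136 bp) the Igf2r promoter run. The names of the locus and the 4 genes Igf2r, Airn, Slc22a2 and Slc22a3 come from the label under which the window was chosen. The window was chosen by measured values, among them the levels of the Airn promoter run in both Parp-1 deficient clones and in wild type cells. Its rule also takes in the levels of PJ34 treated cells and the whole DNA signal of all 4 arrays. All values of the locus are therefore given as descriptions, with no test.

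The arrays held DNA of 3 kinds of cells. The Parp-1 deficient group had 2 lines derived from J1, clones 210-58 and 226-47, with 1 array each. J1 cells given PJ34, a small molecule that blocks the enzyme activity of PARP proteins, had 1 array, and untreated wild type J1 cells had 1 array. Parp-1, found in the nucleus, adds chains of ADP-ribose to itself and other proteins, and J1 is a mouse embryonic stem cell line. Each mutant line is a single clone, and the sources used here give neither dose nor time of PJ34. DNA enriched with an antibody to 5-methylcytidine, a method called MeDIP, carried Cy5, and whole DNA of the same cells carried Cy3. Levels are log2 of Cy5 over Cy3 minus the array's own median, and a level of 0 is that of its middle probe.

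Igf2r encodes the receptor for mannose-6-phosphate and insulin-like growth factor 2, which takes the growth factor up for breakdown, and in most mouse tissues it is expressed from the maternal allele. Airn is a long noncoding RNA that starts in an intron of Igf2r, runs antisense across the Igf2r promoter and is made from the paternal allele, where it silences Igf2r. The CpG island at the Airn start is methylated on the maternal allele, a mark laid down in the oocyte. The Igf2r promoter is methylated on the silent paternal allele, a mark gained after fertilisation. Slc22a2 and Slc22a3 encode transporters of organic cations and are silenced on the paternal allele in the placenta. In undifferentiated embryonic stem cells Igf2r is expressed from both alleles. MeDIP signal does not separate the alleles, so a lower share of methylated copies in every cell and a smaller share of cells with methylation cannot be told apart.

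The starts of both genes differ in base composition, and their sequences are shown for that reason. Both are RefSeq promoters of build GRCm38.p6, from 250 bases before to 50 after the start, printed 5′ to 3′ along the gene's strand with each CpG, the letters CG that can carry the methyl mark, in capitals. CG reads the same on both strands and cannot overlap itself.
Airn, chr17:12741061-12741360, plus strand: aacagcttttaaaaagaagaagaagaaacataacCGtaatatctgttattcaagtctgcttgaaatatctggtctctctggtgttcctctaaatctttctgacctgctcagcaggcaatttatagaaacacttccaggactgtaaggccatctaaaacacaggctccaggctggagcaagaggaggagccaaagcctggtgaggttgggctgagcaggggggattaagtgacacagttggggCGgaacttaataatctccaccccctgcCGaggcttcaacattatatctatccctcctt
Igf2r, chr17:12769657-12769956, minus strand: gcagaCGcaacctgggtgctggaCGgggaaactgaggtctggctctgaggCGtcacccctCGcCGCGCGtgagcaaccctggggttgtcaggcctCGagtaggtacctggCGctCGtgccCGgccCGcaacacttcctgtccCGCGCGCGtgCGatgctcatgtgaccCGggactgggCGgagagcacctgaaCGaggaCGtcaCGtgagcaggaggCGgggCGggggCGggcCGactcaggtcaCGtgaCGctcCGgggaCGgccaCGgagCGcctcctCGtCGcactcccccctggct
The Airn promoter holds 3 CpG in 300 bases, with 45.7% G or C. The Igf2r promoter holds 34, with 70.7% G or C. Of all 32851 RefSeq promoters of this length in the table, 94.6% hold at least 1 CpG and the median holds 7. At least 3 CpG are found in 76.7% of them, and at least 34 in 7.73%. The Slc22a2 and Slc22a3 promoters hold 8 and 5. These positions belong to GRCm38.p6 and are not on the scale of the file positions, which fit the older build mm8 by the window's label. The sources used here do not state the build of the files, and probe sequences were not used. The printed stretches may therefore lie outside the runs, and their CpG counts do not describe the probes.

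The spacing of the runs fits the 2 names. The centres of the runs lie 27.5 kb apart, and the RefSeq starts of Airn and Igf2r lie 28.4 kb apart, with Airn at the lower position. The next nearest spacing among the 4 genes, that of Slc22a3 and Slc22a2, is 49.0 kb off. Neither run fits Slc22a2 or Slc22a3 in this way, and no probe lies elsewhere in the window. Slc22a2 and Slc22a3 therefore have 0 probes each within the window.

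The Airn promoter run was near the level of a middle probe in both Parp-1 deficient clones, and strongly enriched for methylated DNA in PJ34 treated and wild type cells. Its mean level was -0.57 in clone 210-58, -0.03 in clone 226-47, 4.21 in PJ34 treated cells and 3.60 in wild type cells. The clone mean of -0.30 ± 0.38 (SD, n = 2) differed from the single wild type array by -3.90 log2 units, or by -2.34 after an intensity loess. No value of either clone reached any wild type value: the 10 probes ranged from -2.87 to 1.40 in clone 210-58 and from -1.35 to 1.75 in clone 226-47, against 3.52 to 4.87 after PJ34 and 3.17 to 3.84 in wild type. All 10 probes were lower than wild type in both clones.

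Seen against the rest of the array, 28.7% of regions lay below this run in clone 210-58 and 45.0% in clone 226-47. In PJ34 treated cells 97.0% of regions lay below it, and in wild type 96.1%. The run thus stood among the most enriched CpG islands in both samples of J1 cells and below the middle of the array in both clones. By size its difference between clones and wild type was the third most negative of all 14121 regions, of which the median was 0.01. Of the 2 runs of the locus 1 was lower by at least 1 log2 unit with both clones on the same side, and of all regions 2.33% were. At least 1 unit in either direction separated 3.68% of regions, and 1.35% were higher in the clones. This excess of lower over higher regions, 329 against 191, turned round without clone 226-47, with 424 lower and 467 higher. Regions at 2.5 or more in wild type, 1051 in all, had a median difference of -0.37 between clones and wild type. These counts use the contrast by which the locus was chosen, so nothing is read from them.

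**Figure D1:**
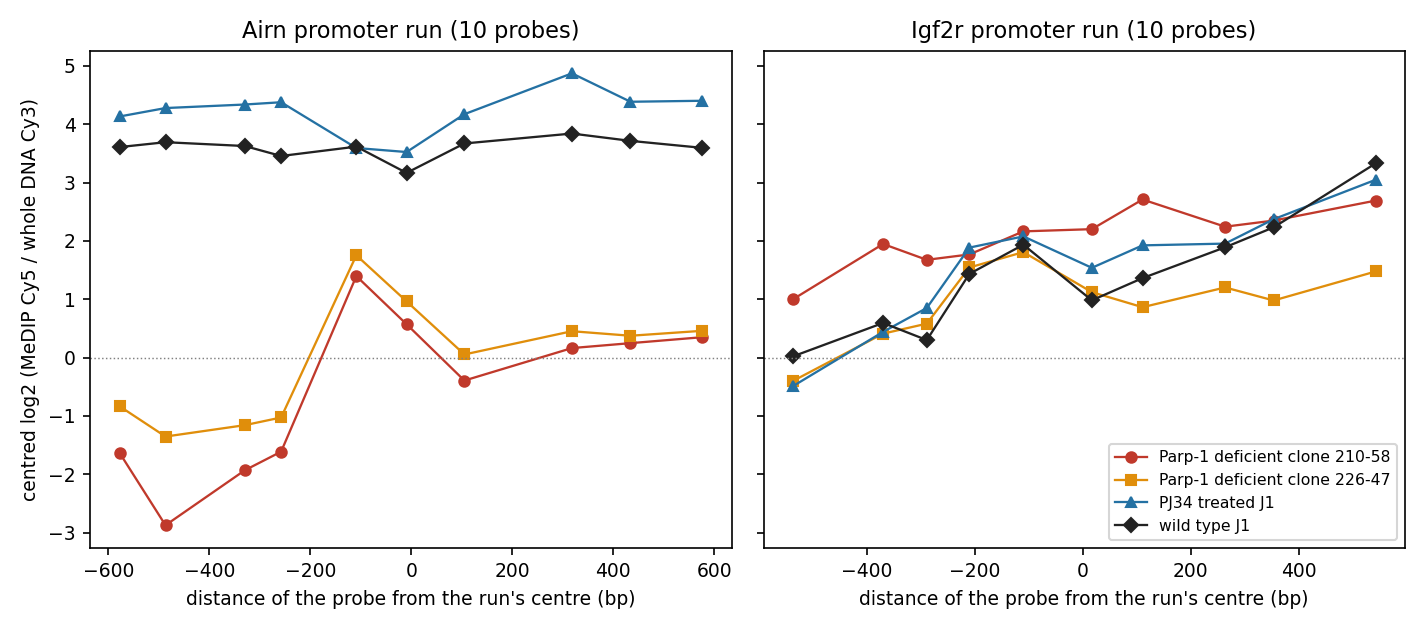
Level of methylated DNA at each of the 10 probes of the Airn (left) and Igf2r (right) promoter runs. The y axis is the centred log2 ratio of MeDIP Cy5 to whole DNA Cy3, the x axis the distance of the probe from the run's centre in bp, and each line is 1 array. In the Airn run both clones lie between -2.87 and 1.75 while PJ34 treated and wild type cells lie between 3.17 and 4.87. In the Igf2r run the 4 lines cross.

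Within the Airn run the clones were not evenly low along the island, as the plot of probe levels shows. The probes are numbered 1 to 10 by position, and the groups below were read off after the values were seen. Probes 1 to 4, from 12584752 to 12585116, had means of -2.01 in clone 210-58 and -1.09 in clone 226-47, against 4.28 in PJ34 treated and 3.60 in wild type cells. This stretch held the lowest values of both clones. Probe 5, from 12585221 to 12585265, had the highest level in both clones, at 1.40 in clone 210-58 and 1.75 in clone 226-47, with 3.59 after PJ34 and 3.62 in wild type. Probe 6, from 12585320 to 12585365, was next at 0.57 and 0.96 in clones 210-58 and 226-47, with 3.52 after PJ34 and 3.17 in wild type. These neighbours were the high point of both mutant profiles, still below both J1 samples. Probes 7 to 10, from 12585433 to 12585952, had means of 0.09 in clone 210-58 and 0.34 in clone 226-47, against 4.46 after PJ34 and 3.71 in wild type.

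The lowest probe was the second, from 12584843 to 12584887, at -2.87 in clone 210-58 and -1.35 in clone 226-47, with 4.28 after PJ34 and 3.69 in wild type. At this probe the mean of the clones differed from wild type by -5.81, and at probe 5 by -2.04. The first value rests on Cy5 signal close to background: probe 2 had a raw Cy5 of 75 over a local background of 64 in clone 210-58 and 99 over 53 in clone 226-47, against 896 over 50 in wild type. The size of the difference there, and of the gap between the clones, is therefore imprecise. Probes 1, 3, 4 and 7 also lay near background, with raw Cy5 of 78 to 80 over 57 to 62.5 in clone 210-58. In clone 226-47 they had 88.5 to 102 over 55 to 59. The depth of the low stretch at probes 1 to 4 is imprecise for the same reason. Both clones had the same order of high and low stretches. Over the 10 probes their levels correlated with Pearson's r = 0.977, a description of neighbouring probes that share an array within a clone and their sequence between clones, not of independent points. Clone 226-47 was above clone 210-58 at every one of the 10 probes, with a gap between 1.52 at probe 2 and 0.11 at probe 10.

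In wild type the same probes were nearly level, with an SD of 0.18 over the 10 probes. Over probes the SD was 1.36 in clone 210-58, 1.03 in clone 226-47 and 0.40 after PJ34. Of the 4361 regions with at least 8 probes, 0.321% had a smaller SD in wild type, and their median was 1.08. Highly enriched regions were in general more even: among the 83 such regions at 2.5 or more in wild type the median SD was 0.40, and 16.9% were more even than the Airn run. The spread in the clones was near that of other regions of this size, with medians of 1.17 in clone 210-58 and 0.93 in clone 226-47.

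The difference between clones and wild type lay in the MeDIP channel, while whole DNA differed by at most 0.45 at any probe of the run. Raw Cy5 signal over the run had a median of 125 (75 to 264.5) in clone 210-58, 146 (88.5 to 368) in clone 226-47, 1152.5 (424.5 to 2251.5) after PJ34 and 818 (299 to 1303) in wild type. The median local Cy5 background at these spots was 55.75 to 59.5. The software flagged all 10 probes as well above background in Cy5 and in Cy3 on all 4 arrays. That flag was also given to probe 2 of clone 210-58, at 75 over 64, so it does not set apart the probes near background. The raw Cy3 medians were 280, 271, 262 and 275 in clone 210-58, clone 226-47, PJ34 treated and wild type cells. The MeDIP signal of the clones thus lay nearer to background, without a match in whole DNA. After centring, Cy5 minus that of wild type had a median over the probes of -3.72 for clone 210-58, -3.49 for clone 226-47 and 0.63 for PJ34 treated cells. Cy3 differed from wild type by medians of 0.18, 0.09 and 0.03 in clone 210-58, clone 226-47 and PJ34 treated cells.

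**Figure D2:**
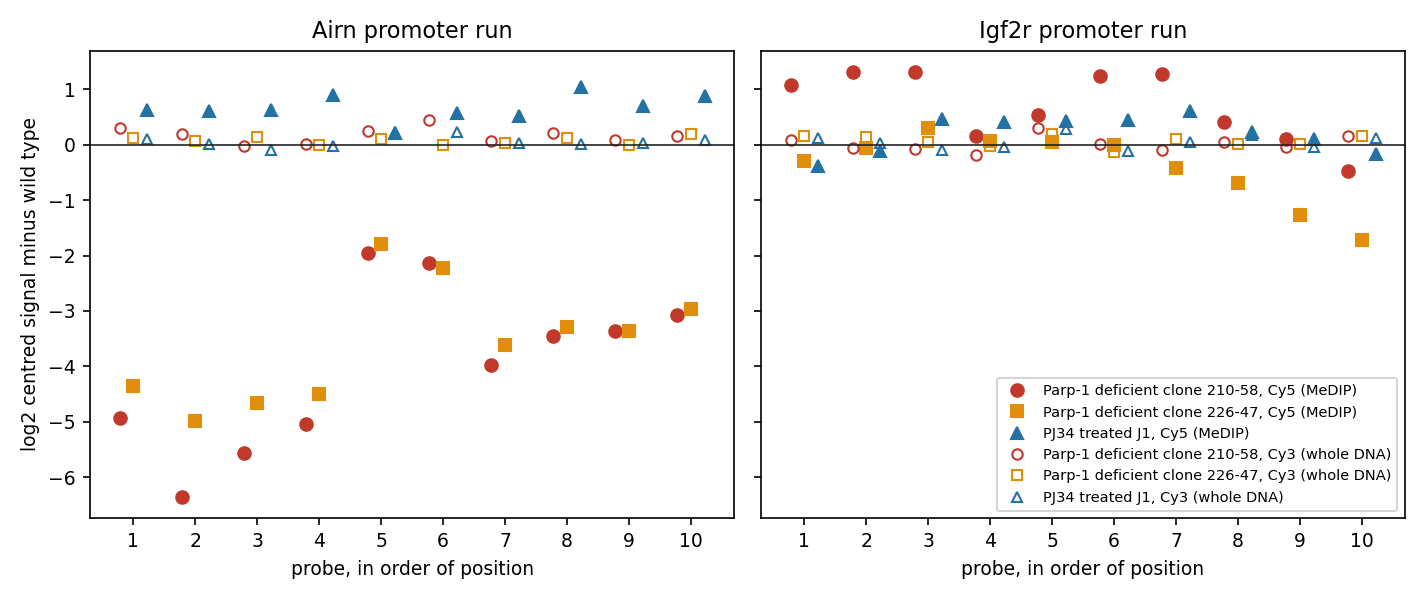
Signal of each channel minus wild type, for the probes of the Airn (left) and Igf2r (right) runs in order of position. Filled symbols are Cy5 (MeDIP), open symbols Cy3 (whole DNA), both as log2 of the processed signal centred on each array's median. In the Airn run the Cy5 values of the clones lie between -6.35 and -1.78, and Cy3 lies between -0.09 and 0.45 in all 3 arrays.

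PJ34 treated cells had the enrichment of the Airn run that wild type had. Their level was 0.61 above wild type, with an SD of 0.30 over the 10 probe differences, and 9 of 10 probes were higher. The difference exceeded the SD of 0.38 between the clones, but that SD does not measure the spread between arrays of J1 cells. Each side had 1 array, so the difference has no replicate check. It was 0.17 after intensity loess and 0.13 when each array was scaled by the width of its profile. At probe 5 PJ34 treated and wild type cells had 3.59 and 3.62, and at probe 8, from 12585648 to 12585692, 4.87 and 3.84. The 1051 regions at 2.5 or more in wild type had a median difference of 0.27 after PJ34, and 22.8% of them differed by at least as much as the Airn run. Neither run of the locus reached 1 log2 unit after PJ34, and 3.7% of all regions did, 2.44% higher and 1.25% lower. Both comparisons share the single wild type array.

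The slides allow a further reading, since wild type and clone 210-58 lay on 1 slide and clone 226-47 and PJ34 treated cells on another. Within the first slide the Airn run differed by -4.17 between clone 210-58 and wild type. Within the second it differed by -4.24 between clone 226-47 and PJ34 treated cells. The first gap is 1 of the 2 differences averaged into the pooled -3.90. The second has PJ34 treated cells as its reference, which lay 0.61 above wild type in this run. Against wild type on the other slide, clone 226-47 differed by -3.63. That both gaps within a slide exceed -3.90 in size is therefore no separate evidence.

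The Igf2r promoter run was moderately enriched in all 4 samples, and the clones lay on either side of wild type. Its mean level was 2.08 in clone 210-58, 0.96 in clone 226-47, 1.56 in PJ34 treated and 1.41 in wild type cells. The clone mean was 1.52 ± 0.79 (SD, n = 2), so its difference of 0.11 from wild type was smaller than the spread between the clones. PJ34 treated cells differed from wild type by 0.15. Ordered from high to low, clone 210-58, PJ34 treated, wild type and clone 226-47 were each within that SD of their neighbour. That SD does not measure the spread between arrays of J1 cells. Of all regions 91.7% in clone 210-58, 84.0% in clone 226-47, 86.8% after PJ34 and 85.6% in wild type lay below this run.

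Along the Igf2r run the level was higher towards the upper end in PJ34 treated and wild type cells. Probe 1, from 12612307 to 12612366, had -0.49 after PJ34 and 0.02 in wild type. Probe 10, from 12613392 to 12613442, had 3.05 after PJ34 and 3.33 in wild type. Across the 10 probes Pearson's r of level with position was 0.855 in clone 210-58, 0.592 in clone 226-47, 0.894 after PJ34 and 0.896 in wild type, again as a description of probes that share an array and a stretch of DNA.

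The clones differed from wild type in opposite directions over much of the run. Clone 210-58 was higher than wild type at 9 of 10 probes, and over probes 1 to 3 its mean was 1.54 against 0.30 in wild type. Over probes 4 to 9, in the middle of the run, it was less far above wild type, with a mean of 2.24 against 1.64. The largest gaps there were at probe 6, with 2.20 against 0.98, and at probe 7, with 2.71 against 1.36. Clone 226-47 was lower than wild type at 7 of 10 probes, with 1.48 against 3.33 at probe 10 and 0.98 against 2.23 at probe 9. Over probes 1 to 3 clone 226-47 had a mean of 0.20 and PJ34 treated cells 0.27. At probe 10 all 3 other arrays were below wild type, at 2.69 in clone 210-58, 1.48 in clone 226-47 and 3.05 after PJ34.

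Clone 226-47 had a narrower profile over the whole array, and this moves with its lower values here. The interquartile range of region levels was 1.48 in clone 210-58, 0.999 in clone 226-47, 1.39 after PJ34 and 1.37 in wild type. When each array was scaled by its median absolute deviation the Igf2r run had 1.92, 1.20, 1.39 and 1.41 in the same order, and the Airn run had -0.53, -0.04, 3.74 and 3.61. The part of profile width in the Igf2r values was not tested. Cy3 over the Igf2r run differed from wild type by medians of -0.01 in clone 210-58, 0.07 in clone 226-47 and 0.04 after PJ34.

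Whole DNA over the locus was close to wild type in all 3 other arrays. Over its 20 probes Cy3 differed from wild type by a median of 0.07 in clone 210-58, 0.09 in clone 226-47 and 0.04 in PJ34 treated cells, with single probes from -0.19 to 0.45. Over the 4607 usable probes of chromosome 17 the medians were -0.02, 0.02 and -0.01 in the same order. Raw Cy5 medians over all probes were 133 to 154.5, with median local backgrounds of 56.5 to 57.5. The software flagged Cy5 as well above background for 91.3% to 98.0% of probes. The number of arrays limits the precision. The software's own error of a log ratio at the probes of the locus was 0.21 to 0.47 on the log2 scale. The Parp1 gene itself was not examined here as a check of the labels.

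Just outside the window, the nearest run below it, from 12350193 to 12350923 (7 probes), had 0.88 in clone 210-58, 0.85 in clone 226-47, 1.02 after PJ34 and 1.84 in wild type. All 3 other arrays were thus below wild type there, with differences of -0.96, -0.99 and -0.82. Its centre lies 235 kb from that of the Airn run, and the RefSeq starts of Slc22a3 and Airn lie 234 kb apart. These spacings differ by 1.19 kb, against 0.87 kb for the pair that named the Airn and Igf2r runs, so the run may lie at the Slc22a3 start, which the files do not settle. The nearest run above, from 12758513 to 12759785 (14 probes), had -1.04 in clone 210-58, -0.60 in clone 226-47, -0.38 after PJ34 and -0.28 in wild type. Neither run showed a gap between clones and wild type of the size seen in the Airn run, the differences being -0.97 below and -0.54 above.

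**Figure D3:**
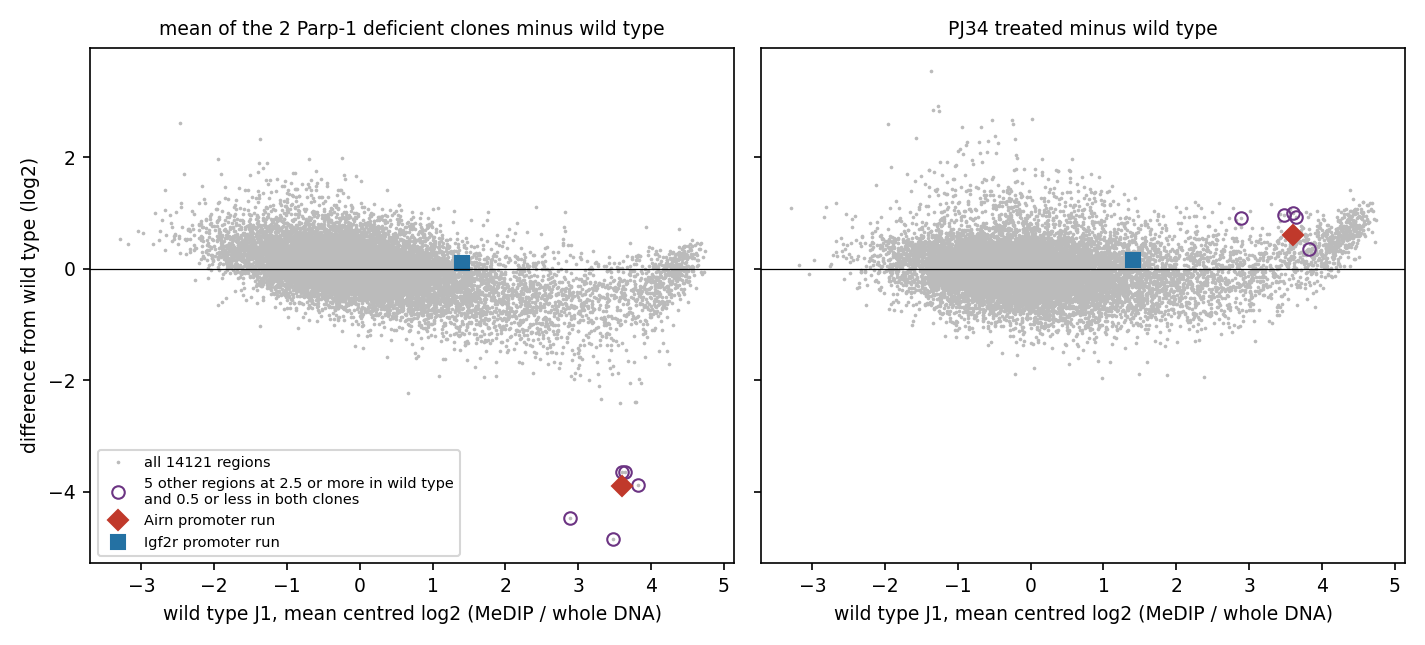
Difference from wild type of every region against its level in wild type, for the mean of the 2 clones (left) and for PJ34 treated cells (right), both on the log2 scale. Grey points are all 14121 regions, and the Airn and Igf2r runs and 5 further regions are marked. In the left panel the Airn run lies at -3.90 with the 5 further regions, and in the right panel at 0.61.

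Few islands had a pattern like that of the Airn run. Regions at 2.5 or more in wild type and at 0.5 or less in both clones numbered 6 of 14121 (0.0425%), the Airn run and 5 others. Under the same levels with PJ34 treated cells in place of the clones there were 0 regions (0.0%). Likeness was measured as the Euclidean distance over the centred levels of the 4 arrays, and the 10 nearest regions were taken. The 5 nearest were the same 5 regions, which lay at -1.98 to 0.02 in clone 210-58, -1.16 to 0.11 in clone 226-47, 3.80 to 4.61 after PJ34 and 2.89 to 3.82 in wild type. Since 4 numbers per region define both lists, their overlap is no separate evidence. The locus was chosen by these same levels, so nothing is read from the small number of such regions.

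The nearest region lay on chromosome 2 from 173940167 to 173940489 (3 probes), at a distance of 0.496. Next were a region on chromosome 11 from 11925467 to 11926345 (10 probes) at 0.607 and a further region on chromosome 2 from 173941465 to 173943988 (22 probes) at 0.717. On chromosome 7 from 6333486 to 6334587 the distance was 1.53, and on chromosome 11 from 22872000 to 22873052 it was 1.99. These last 2 lay lower in the clones than the Airn run, at -1.60 and -1.98 in clone 210-58 and at -1.13 and -1.16 in clone 226-47. Ranks 6 to 10 were still enriched in the clones, with 1.01 to 1.33 in clone 210-58 and 0.62 to 1.73 in clone 226-47. Only the nearest 3 regions lay within a distance of 1 of the Airn run, whereas 731 regions lay that near to the Igf2r run. The distance uses the levels by which the locus was chosen, so nothing is read from this contrast either.

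**Figure D4:**
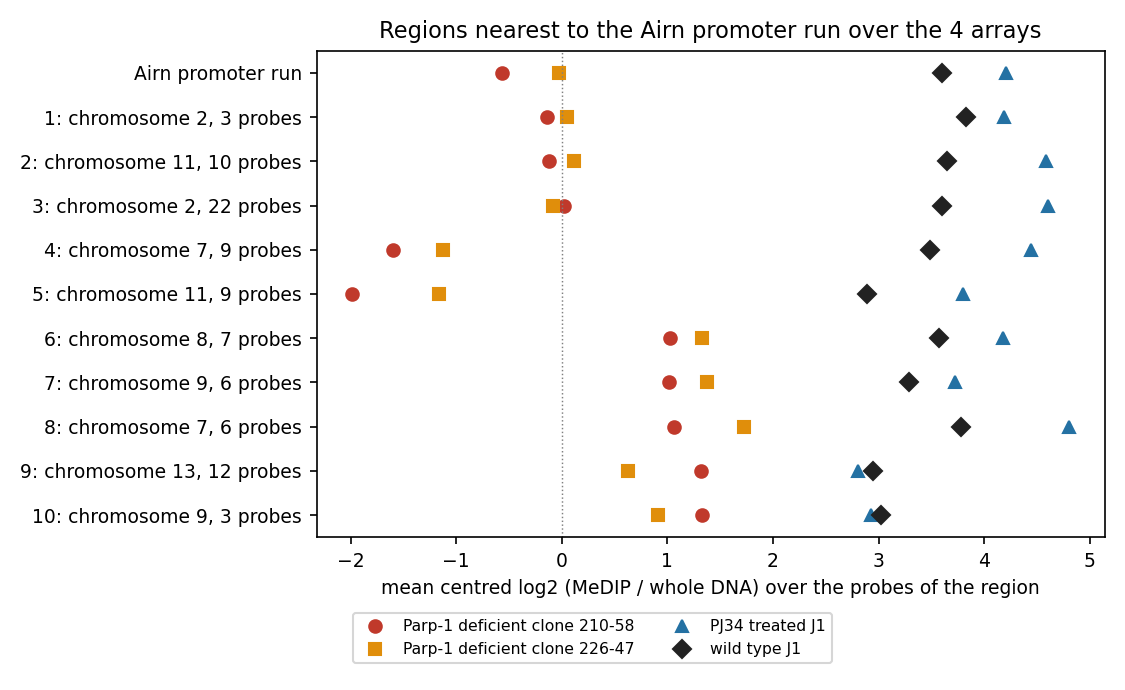
Mean level of the Airn promoter run and of the 10 regions nearest to it over the 4 arrays, ordered by distance, with the centred log2 ratio of MeDIP to whole DNA on the x axis and 1 symbol per array. In the Airn run and the first 5 regions both clones lie at 0.11 or below and wild type at 2.89 or above. In the regions at ranks 6 to 10 the clones lie between 0.62 and 1.73.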

How the data were processed

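DNA of 4 mouse embryonic stem cell samples was measured on a 2-colour Agilent CpG island array each, with MeDIP DNA in Cy5 and whole DNA in Cy3, per the labels. Agilent Feature Extraction, 10.7.3.1 per the file headers and 9.1 per the submitters' processing notes, made the deposited intensity values, with background subtraction, detrending and a linear dye factor. The error of each log10 ratio is the software's, per the file headers. The deposited value table holds the linear ratio of processed Cy5 over Cy3 and was used as an alternative. No dyes were swapped, per the labels.

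The median of an array's 97651 log2 ratios was subtracted from each, with no loess or quantile step. Then 442 probes without a position and 30 flagged as outliers were left out. Runs of at least 3 probes with gaps of at most 500 bp gave 14121 regions, each the mean of its probes. Arrays were compared by size (1 log2 unit) and no p-value was computed, since the locus, its lists and the thresholds were chosen with earlier results of these data known, and wild type and PJ34 have 1 array each. The SD between the clones covers these 2 lines only, and the number of arrays limits the precision. The size rule was run on simulated arrays, with shifts larger than its limit and less spread over probes than the medians here. That run checks the code and does not show how the rule does on these data. Regions were named by position, and likeness took the 10 nearest regions by rule. Python 3.11.15, numpy 2.4.6 and pandas 2.3.3 were used, with limma 3.58.1 in R 4.3.3 for normexp (offset 50), quantile and loess alternatives.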

Additional observations from a re-analysis of the deposited data

How the results depend on the processing

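The Airn difference between clones and wild type was -3.90 and ran from -4.17 to -3.57 under 11 alternatives. These include -3.63 to -4.17 when either clone was left out. Not all of the 11 could move it. The deposited value table holds the same ratio and other gap limits kept the same probes, so each gave -3.90 again. Leaving out dim probes removed none of the 10 Airn probes and so gave -3.90 again, which is no check of the probes near background. The value within the slide of wild type is the same subtraction as that without clone 226-47. The Airn difference was -2.73 with normexp background correction and -2.34 after intensity loess. The cause was not tested. Among all regions its rank from the lowest was 3 to 6 under the 10 alternatives that keep both clones and all arrays. The Airn difference after PJ34 was 0.61, and 0.17 after intensity loess and 0.13 with scaling by the median absolute deviation. The Igf2r difference between clones and wild type moved by less than the SD between the clones under every alternative that kept both clones. Leaving out 1 of 2 clones always moves their mean by less than that SD, so those settings are no check. With either clone left out, the difference between clones and wild type was -0.45 to 0.67 (0.67 without clone 226-47). Its sign therefore depends on the clone. The Igf2r difference after PJ34 was 0.15, and it was 0.51 with medians over probes. With intensity loess it was -0.04, and with scaling by the median absolute deviation -0.03.

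The Cy3 difference of the locus, the median over probes of the clone mean minus wild type, was 0.051, and 0.038 without centring, 0.0998 with normexp and 0.074 to 0.089 when either clone was left out. After PJ34 it was 0.038, and -0.047 without centring and 0.071 with normexp. Regions past 1 log2 unit numbered 520 for the clones (191 higher, 329 lower), 101 after loess (35 and 66), 183 with normexp (83 and 100) and 554 to 891 when either clone was left out, with 136 higher and 418 lower without clone 210-58 and 467 and 424 without clone 226-47. For PJ34 they numbered 522 (345 higher, 177 lower), 65 after loess (55 and 10), 101 with normexp (95 and 6) and 840 with medians over probes (437 and 403). Centring on chromosome 17 gave 285 higher and 240 lower. PJ34 and wild type shared no slide, so no value within a slide could be had. No paired analysis was possible because the labels give no replicate numbers and wild type has 1 array.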

Other observations

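The 5 regions most like the Airn run had an SD over probes of 0.77 to 1.65 in clone 210-58 and 0.44 to 1.04 in clone 226-47, against 0.12 to 0.24 in wild type. Each was less even in both clones than in wild type. The nearest 2 had 0.83 and 0.77 in clone 210-58 and 0.44 and 0.74 in clone 226-47. These lay below the medians of 1.17 and 0.93 over regions of at least 8 probes. Raw Cy5 of the 5 regions was not examined, and the part of signal near background in their spread was not tested. In the Airn run, where both clones were highest at probes 5 and 6, PJ34 treated cells had their lowest values, 3.59 and 3.52, against 4.13 to 4.87 at the other 8 probes. All 14 probes of the run just above the window are listed in the files with a start larger than the end, and none of the 20 probes of the locus is.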
